A study of Populus tremula x Populus alba with 12 samples.

Results

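The comparison set leaves of glycosyltransferase knockout poplars against leaves of poplars of the same experiment that the labels describe only as having an intermediate phenotype. It used 6 of the 12 libraries of the series, 3 labelled knockout and 3 labelled intermediate phenotype (called intermediate here), chosen by the genotype label alone. The 3 empty-vector and 3 wild-type libraries served as a scale for where both groups lay and are called the controls. All plants were clonal *Populus tremula* × *Populus alba* of a clone labelled INRA 717 hybrid, taken from in vitro culture into a greenhouse with supplemental lighting, and fully expanded leaves from the middle of the stem were collected at 3 months. The series title gives the knockouts as made with CRISPR. The labels do not say which glycosyltransferase was cut, what the edits were, how many edited lines the libraries represent, or whether intermediate plants carry an edit. Libraries of a group may therefore be plants of 1 line, and p-values measure only the spread between these libraries.

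Poplar leaves store salicinoids, phenolic glycosides built around salicyl alcohol that deter herbivores. UDP-glycosyltransferases attach the sugar that makes such phenols soluble and storable. UGT71L1, the enzyme whose disruption is the subject of the study as published, glucosylates salicyl benzoate on the way to the salicinoids. Salicylic acid, a defence hormone, is chemically close to these compounds.

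Total counts were 5825764, 5380384 and 9204894 in the knockout libraries and 5869845, 5979135 and 10294530 in the intermediate libraries. The files listed counts for 16866 transcripts, and 14279 passed the expression filter. Levels are given as CPM, counts scaled to a common library size, which are comparable between libraries but not between transcripts of different length. The files do not pair transcript IDs with gene names and no annotation was used here. The labelled tissue was therefore not checked against leaf markers, and IDs stand without a role apart from UGT71L1. Bulk RNA cannot tell a lower level per cell from fewer cells of a type, and this holds for every value below.

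On the first principal component of all tested transcripts, which held 53.4% of the variance, the knockout libraries stood at 90.2, 97.9 and 70.5. The intermediate libraries stood at 1.84, −37.2 and −9.29, and the 6 controls between −42.7 and −24.7. Intermediate libraries 1 and 3 thus lay on the knockout side of every control, well short of the knockout libraries, and intermediate library 2 lay among the controls. Between knockout and intermediate libraries the correlation of log2 CPM across transcripts ranged from 0.867 to 0.931, and the pairs with intermediate library 2 gave the lowest value for each knockout library. Within groups it ranged from 0.953 to 0.976 in knockout and from 0.949 to 0.972 in intermediate, where libraries 1 and 2 were least alike. These coefficients describe libraries that share their transcripts and are no test.

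**Figure D1:**
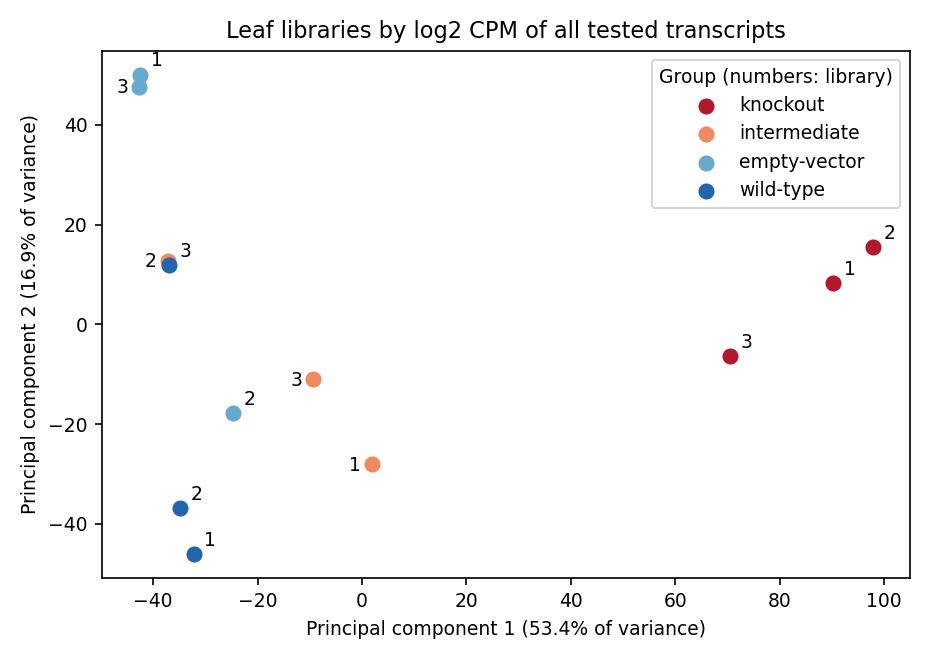
Principal components 1 and 2 of log2 CPM over 14279 transcripts, 1 point per library, numbered within its group. The knockout libraries stand at 70.5 to 97.9 on component 1 and the intermediate libraries at −37.2 to 1.84, with library 2 among the controls.

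Of the 14279 transcripts, 2478 (17.4%) differed between knockout and intermediate by the quasi-likelihood test of edgeR, called at a Benjamini-Hochberg adjusted p under 0.05. In knockout 1420 transcripts (9.94%) were higher and 1058 (7.41%) were lower. The median log2 fold change over all tested transcripts was −0.0060. Among the higher transcripts the median fold change was 2.53, with 956 over 2-fold, 359 over 4-fold and 136 over 8-fold. Among the lower transcripts the median was 2.54, with 742 over 2-fold, 301 over 4-fold and 141 over 8-fold. Falls over 32-fold numbered 55 and rises over 32-fold 18. Tested against a change of 2-fold in place of no change, 332 transcripts were higher and 171 lower.

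**Figure D2:**
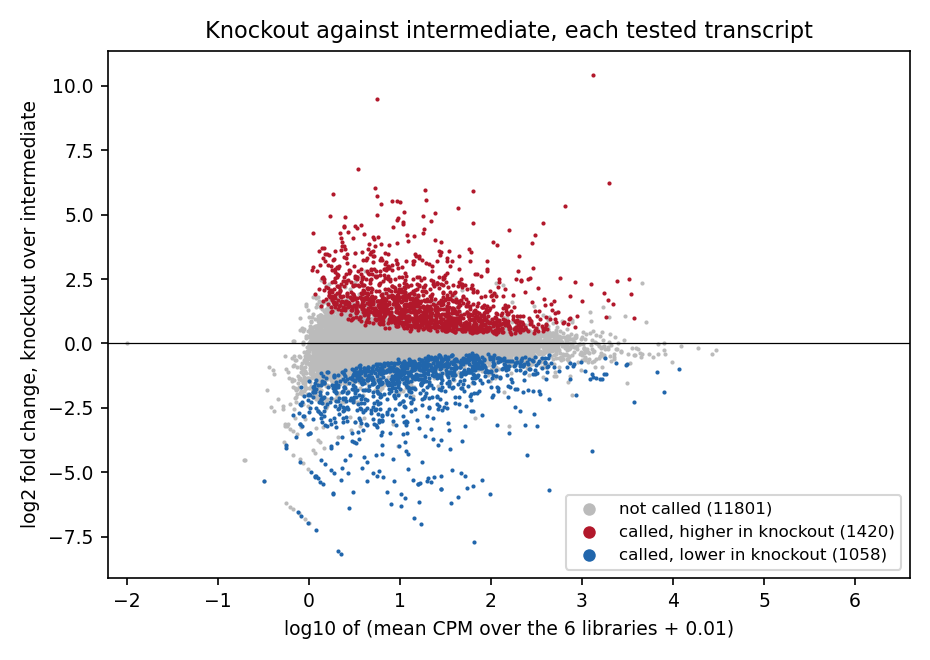
Log2 fold change of knockout over intermediate against the mean level over the 6 libraries, 1 point per tested transcript. Transcripts called higher in knockout (1420, red) and lower (1058, blue) lie on both sides of 0 among weak and abundant transcripts.

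The knockout libraries lay wholly above the intermediate libraries in 1386 of the 1420 higher transcripts and wholly below them in 1004 of the 1058 lower ones. Over all tested transcripts such separation occurred in 18.9% upward and 16.1% downward, and called transcripts are selected for it. The higher transcripts took 13.6%, 14.6% and 12.6% of all counts in the knockout libraries and 5.01%, 4.80% and 5.22% in the intermediate libraries. The lower transcripts took 5.80%, 5.64% and 7.16% in knockout and 12.5%, 15.7% and 13.1% in intermediate. The 10 most abundant higher transcripts alone held 3.49% to 4.17% of counts in knockout and 0.78% to 1.04% in intermediate. The 10 most abundant lower transcripts held 2.36% to 3.12% of counts in knockout and 5.61% to 6.19% in intermediate. Averages of 1000 CPM or more over the 6 libraries were found for 127 transcripts, of which 12 (9.45%) were called higher and 18 (14.2%) lower in knockout, against 9.94% and 7.41% of all tested.

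Near-complete switches were a small share of these calls. A mean under 1 CPM in intermediate with at least 5 CPM in knockout was found for 50 of the higher transcripts. The mirror case, under 1 CPM in knockout and at least 5 CPM in intermediate, was found for 51 of the lower ones. Counts of 0 in all 3 libraries of a group occurred for 1 higher transcript (0 in intermediate) and 7 lower ones (0 in knockout). Such switches were counted among called transcripts only. How many uncalled transcripts met the same rules was not counted, so the numbers do not set the calls apart.

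The controls show which group departed from the usual leaf level. Among the 1420 higher transcripts, the median log2 level relative to the mean of the controls was 1.42, 1.48 and 1.31 in the knockout libraries. In the intermediate libraries it was 0.11, 0.060 and 0.21, and single controls ran from −0.12 to 0.15. Among the 1058 lower transcripts it was −1.42, −1.40 and −1.12 in knockout, −0.26, 0.17 and −0.094 in intermediate, and −0.16 to 0.13 in single controls. The intermediate medians thus lay near the controls. Beyond the range of single controls were library 3 in the higher set, toward knockout, and in the lower set library 1, toward knockout, and library 2, slightly away from it. The sets were chosen for a gap between knockout and intermediate, so an intermediate level away from knockout is partly built into them.

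**Figure D3:**
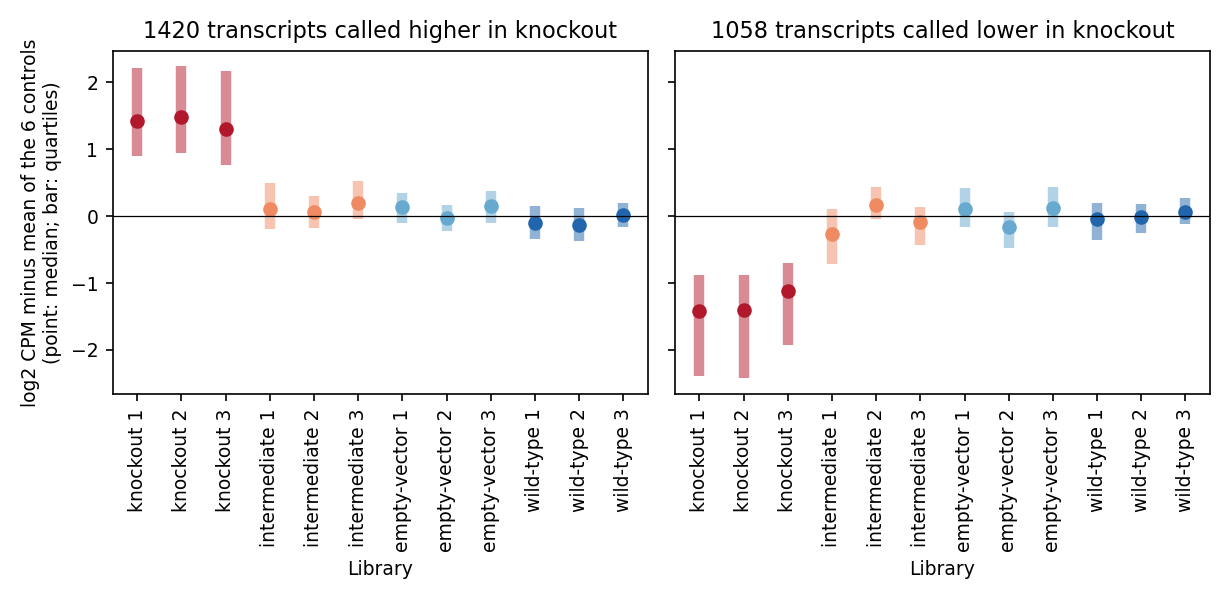
Log2 CPM minus the mean of the 6 controls in each library, for the 1420 transcripts called higher (left) and the 1058 called lower (right) in knockout; points are medians and bars quartiles over transcripts. The knockout medians are 1.31 to 1.48 and −1.42 to −1.12, and those of the intermediate libraries lie between −0.26 and 0.21.

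Counted transcript by transcript, the knockout libraries lay above all 6 controls in 1276 (89.9%) of the higher transcripts, against 15.1% of all tested transcripts. They lay below all controls in 911 (86.1%) of the lower ones, against 12.6% of all tested. The intermediate libraries did not separate from the controls in 1330 transcripts called higher (93.7%) and 1022 called lower (96.6%), and over all tested transcripts in 97.3%. The commonest arrangement was therefore knockout beyond every control with intermediate not separate from them, which held for 1188 higher (83.7%) and 890 lower transcripts (84.1%). These comparisons share the knockout or the intermediate libraries with the one that chose the transcripts, so they describe its calls and do not support them.

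Tested directly against the controls in the same fit, intermediate had 1 transcript called higher (0.007%) and 0 called lower by edgeR, with 913 at an unadjusted p under 0.05. Knockout against the controls had 2439 called higher (17.1%) and 1857 called lower (13%), with 5818 at an unadjusted p under 0.05. These comparisons share the control libraries. The intermediate libraries spread on the first principal component, so few calls do not show that intermediate equalled the controls.

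Few called transcripts were graded, with all intermediate libraries beyond every control on the same side as knockout. Calls were chosen for a gap between knockout and intermediate, which works against graded transcripts. A single intermediate library within the controls also fails the rule, and library 2 lay among the controls on the first principal component. The counts therefore do not measure how frequent graded levels were. There were 80 among the higher transcripts (5.63%) and 17 among the lower (1.61%). Over all tested transcripts intermediate lay above the controls in 1.85% and below them in 0.882%, wherever knockout lay. Those shares follow a wider rule than the graded counts and are not a like measure. Transcripts that set the groups on opposite sides of the controls were rarer still. In 8 transcripts (0.056% of all tested) knockout lay above and intermediate below all controls, and in 4 (0.028%) knockout lay below and intermediate above them; all of these were called. Intermediate lay above all controls, with knockout not beyond them, in 106 tested transcripts (0.742%), of which 14 were called lower in knockout. It lay below all controls, with knockout not beyond them, in 61 (0.427%), of which 2 were called higher. By edgeR's test against the controls, the median log2 fold change of the higher set was 1.47 in knockout and 0.14 in intermediate, and that of the lower set −1.37 in knockout and −0.053 in intermediate.

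UGT71L1 (Potri.016G014500.1; the ID places it on chromosome 16) had 9.58, 11.2 and 10.1 CPM in knockout and 21.5, 35.7 and 28.2 CPM in intermediate. The controls had 33.5 to 77.2 CPM. The groups did not overlap, and intermediate libraries 1 and 3 lay below every control while library 2 lay within them. The transcript was lower in knockout, with a log2 fold change of −1.47 ± 0.32 (SE), or 2.77-fold (95% interval 1.70 to 4.52), and an edgeR adjusted p of 0.0086. Small edits need not lower an RNA and the labels do not name the target, so the level is no check of how the libraries were labelled. The name is the published assignment of this ID, which no file of the series gives, and close relatives can share reads with it.

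The largest fitted rise among separated transcripts that averaged 5 CPM or more was that of Potri.013G082700.1. It had 1445, 5843 and 682 CPM in knockout, 1.10, 1.17 and 3.08 CPM in intermediate and 0.107 to 2.45 CPM in the controls. Knockout library 2 stood highest, and every knockout library stood far above every other library. On the log2 scale the difference was 10.43 ± 0.94 (SE), and edgeR gave an adjusted p of 4.9e-05. Leaving out knockout library 2 gave 9.11, and leaving out intermediate library 3 gave 11.15. Potri.T029200.1 came next by the fitted fold change, a place that is not fixed because it had no intermediate counts. It had 9.07, 22.6 and 2.41 CPM in knockout and 0 counts in all 3 intermediate libraries. Controls had at most 0.307 CPM. The mean of the knockout libraries, 11.3 CPM, was 78.9 times a floor of 3 counts over the pooled intermediate group, 0.144 CPM (edgeR adjusted p = 0.0017). Pooled in the same way, knockout had 9.64 CPM, so 78.9-fold is not a strict lower bound. Knockout library 2 again stood highest, and without it the same ratio was 39.9-fold. The floor covers counting error only.

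Potri.010G208100.1 had 0.684, 0.746 and 0.439 CPM in knockout and 4.96, 345 and 38.8 CPM in intermediate. The controls had 36.6 to 310 CPM. Potri.010G085200.1 had 0.342, 0 and 0.329 CPM in knockout and 7.53, 75.6 and 18.9 CPM in intermediate, with 13.5 to 84.1 CPM in the controls. In both, knockout was uniformly near 0 while the intermediate libraries spread widely in the order 2, 3 and 1, and library 1 lay below every control. Their log2 fold changes were −7.72 ± 1.57 and −7.03 ± 1.31 (SE), with edgeR adjusted p of 0.0055 and 0.0032. The 95% intervals of the fall were 19.7 to 2264-fold and 18.2 to 937-fold. Knockout counts were only 4, 4 and 4 for the first and 2, 0 and 3 for the second. The second was thus at or below 3 counts in every knockout library, a level not told apart from 0, so its fold size is not fixed. Both calls were lost in limma-voom (adjusted p of 0.21 and 0.14), and without intermediate library 2 the first had a log2 fold change of −5.20 and the second −5.70.

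**Figure D4:**
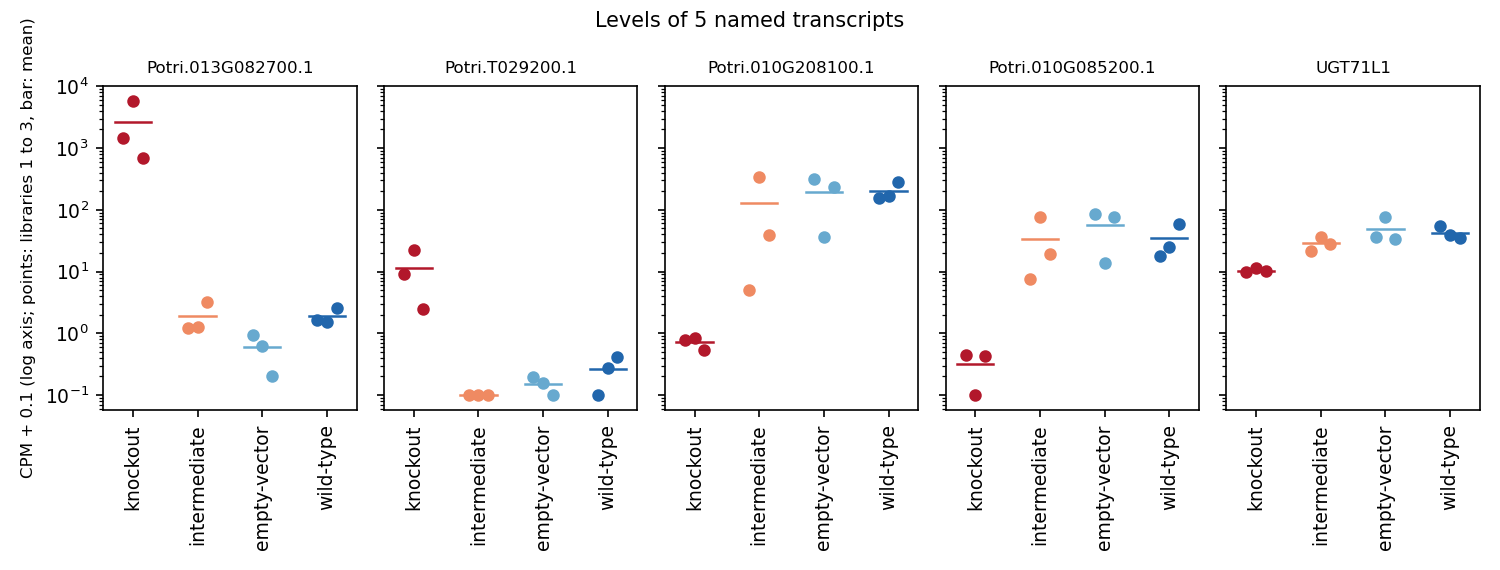
CPM + 0.1 on a log axis for 5 transcripts in each library (points) with group means (bars). Potri.013G082700.1 and Potri.T029200.1 are high in knockout alone, Potri.010G208100.1 and Potri.010G085200.1 spread in intermediate from 4.96 to 345 and 7.53 to 75.6 CPM, and UGT71L1 is at 9.58 to 11.2 CPM in knockout and 21.5 to 35.7 CPM in intermediate.

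The spread within intermediate was shared by most of the large falls. Of the 20 largest falls by the same rule, 41.6-fold to 211-fold, 19 had the order library 2, then 3, then 1 within intermediate. Library 2 exceeded library 1 by a median of 10.1-fold in them. Among the 141 lower transcripts over 8-fold, intermediate library 2 was highest of its group in 84.4% and library 1 lowest in 75.9%, against 36.9% and 39.0% of all tested transcripts. The median log2 level of these 141 relative to the controls was −4.23, −4.17 and −3.48 in knockout and −1.82, 0.41 and −0.76 in intermediate. The controls spread over the same transcripts too, within both labels. Their medians were 0.85, 0.61 and 0.52 in empty-vector libraries 1 and 3 and wild-type library 3. They were −0.98, −0.55 and −0.33 in empty-vector library 2 and wild-type libraries 1 and 2. The second principal component (16.9% of the variance) put the first set at 11.9 or higher and the second at −17.8 or lower. Intermediate library 2 stood at 12.8 on this component and library 1 at −28.1, with library 3 between them. Knockout library 3 was the highest of its group in 60.3% of these 141 transcripts, against 37.3% of all tested transcripts. What makes these transcripts vary within a group was not tested.

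The large rises cannot be compared with the large falls in spread, since intermediate is the low side among rises. The 136 rises over 8-fold held 0.0437% to 0.0477% of counts in the intermediate libraries, and the 141 falls 0.385% to 1.42%. Among the 136 higher transcripts over 8-fold, the median log2 level relative to the controls was 3.58, 3.91 and 3.70 in knockout and 0.20, 0.26 and 0.42 in intermediate. Single controls ran from −0.089 to 0.088 there, so the medians of all 3 intermediate libraries lay above every control. A filter of 10 counts in at least 6 libraries left only 58 of these 136. Most of these levels outside knockout thus rest on few counts, and the small offsets were not tested. Among the 223 rises of 4 to 8-fold it was 2.59, 2.70 and 2.51 in knockout and 0.48, 0.10 and 0.54 in intermediate. Single controls ran from −0.12 to 0.13 in that class, so intermediate libraries 1 and 3 lay above all of them and library 2 did not.

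**Figure D5:**
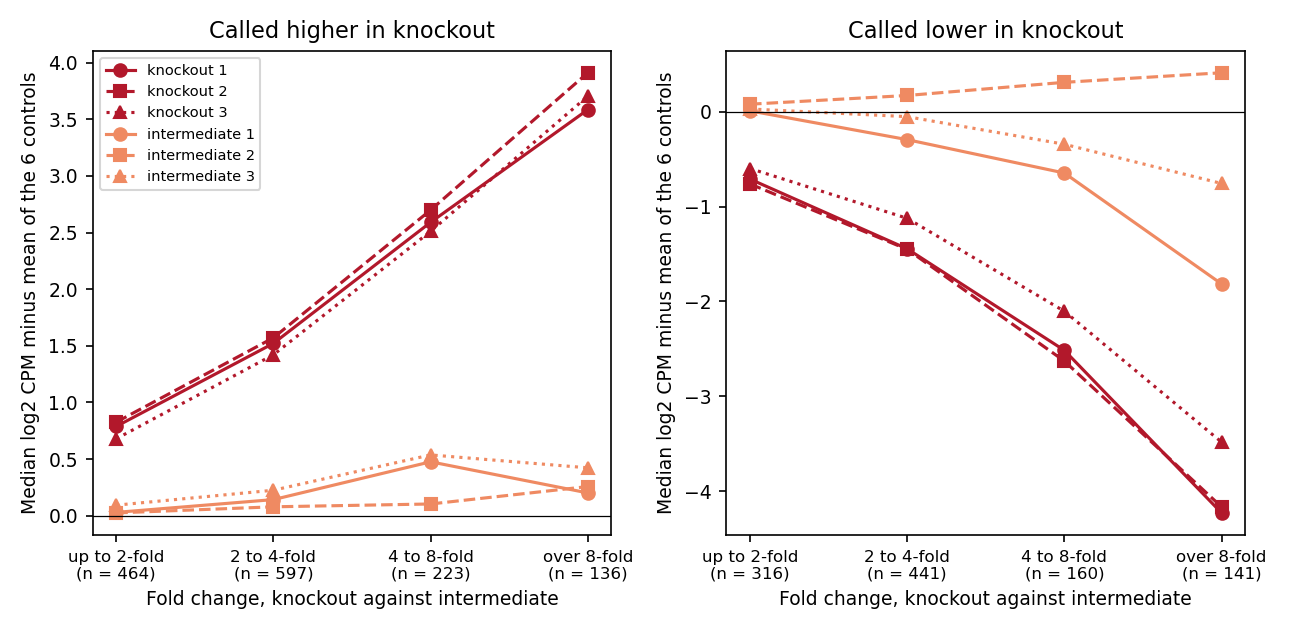
Median log2 CPM minus the mean of the 6 controls in each knockout and intermediate library, for transcripts called higher (left) and lower (right), by the size of the fold change. The intermediate medians are 0.025 to 0.54 among the rises and −1.82, 0.41 and −0.76 among the falls over 8-fold.

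Single libraries moved the number of calls. Without intermediate library 2 there were 1566 calls, 975 higher and 591 lower, and without knockout library 2 there were 1607, 1016 higher and 591 lower. Without knockout library 1 the lower calls fell to 595. Of the 136 rises over 8-fold, between 130 and 136 remained called whichever of the 6 libraries was left out. Of the 141 falls over 8-fold, 140 remained without intermediate library 1, 105 without intermediate library 2, 104 without knockout library 1 and 103 without knockout library 2. A filter of 10 counts in at least 6 libraries left only 58 of the 136 rises, all called, and 135 of the 141 falls, all called. Most of these rises thus had few counts outside knockout, where a call is hard to lose. Rises and falls are therefore not comparable in how well they were kept. Over all sizes, 919 of 1420 rises and 567 of 1058 falls remained called without intermediate library 2. None of the 2478 calls changed direction in the 6 fits with 1 library left out. That was nearly fixed in advance, since the groups did not overlap in 1386 of the 1420 rises and 1004 of the 1058 falls.

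Lists of published IDs, recalled and not checked against an annotation, are given as whole lists only. Over all tested transcripts 9.94% were called higher and 7.41% lower. Of 3 salicinoid IDs, all tested, 1 was higher and 1, UGT71L1, lower in knockout, with a median log2 fold change of 0.22. Of 22 listed phenylpropanoid and monolignol IDs 13 were tested, and none passed edgeR's threshold (0 calls, and 0 with an unadjusted p below 0.05), and DESeq2 and limma-voom likewise called 0. Their log2 fold changes ran from −0.84 to 0.43 (median 0.16). Of 14 listed flavonoid and tannin IDs 5 were tested, and 1 was lower in knockout; log2 fold changes ran from −2.05 to 1.79 (median 0.19). Earlier results for these lists were known, so their counts add no independent support.

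For cells of the wood, the marker list held 5 IDs of xylem cellulose synthases, of which 3 were tested. Again 0 were called by edgeR, DESeq2 or limma-voom, and 0 had an unadjusted p below 0.05 in edgeR. Their summed level was 1402, 1527 and 357 CPM in knockout, 930, 712 and 676 CPM in intermediate and 497 to 1291 CPM in the controls. Knockout library 3 was thus the lowest of all 12 libraries and knockout libraries 1 and 2 the highest, and log2 fold changes were 0.043 to 0.56. The part of vascular tissue in the calls was not tested.

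Calls were spread over the genome, with the chromosome read from the ID. The share called higher ran from 6.94% on chromosome 14 to 13.8% on chromosome 17, and the share called lower from 6.68% on chromosome 2 to 9.05% on chromosome 7. IDs not placed on a chromosome had 16.1% called higher and 5.45% called lower, among 514 tested. Neighbours in ID order were called in the same direction more frequently than transcripts at large, though in a minority of cases. After a transcript called higher, the next tested transcript on the chromosome was also higher in 264 of 1336 cases (19.8%), against 9.94% of all tested. After one called lower it was also lower in 129 of 1030 cases (12.5%), against 7.41%. The next transcript was called in the opposite direction in 6.29% of cases after a higher one and in 6.80% after a lower one, against 7.41% and 9.94%. No test was made of these shares. Counts of near-identical neighbouring genes are uncertain, since such genes can share reads.

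There were 9 runs of at least 5 consecutive tested transcripts called in 1 direction, 8 higher and 1 lower. The runs of 7 higher transcripts lay on chromosomes 7 and 9. The run on chromosome 7 summed to 82.6, 52.6 and 80.6 CPM in knockout and 27.6, 22.4 and 26.1 CPM in intermediate, and its folds were 2.05 to 4.73. A run of 5 on chromosome 6 had folds of 7.70 to 31.0, and it summed to 199, 244 and 137 CPM in knockout and 25.7, 13.9 and 9.33 CPM in intermediate. The controls had 5.02 to 18.4 CPM there, so intermediate library 1 lay above all of them. The lower run, 7 transcripts on chromosome 17, summed to 11.6, 10.6 and 23.9 CPM in knockout and 92.0, 693 and 250 CPM in intermediate. It repeated the order of intermediate libraries 2, 3 and 1 seen among the large falls, beside 199 to 830 CPM in the controls.

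More than 1 transcript was tested for 111 loci, and 18 of them held a call. Over all tested transcripts 17.4% were called, a share per transcript and not per locus. In 6 all tested transcripts of the locus moved in 1 direction, in 12 a called transcript stood beside 1 that was not called, and in 0 were transcripts called in opposite directions. Only loci with more than 1 called transcript could have shown opposite directions.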

How the data were processed

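The authors deposited 1 table of whole-number counts per transcript for each library, with no header and no normalisation. Tools listed, per the submitters' processing notes, are HTSeq, HISAT2, DESeq2, Cufflinks and SAMtools, with neither roles nor versions. For genome build, annotation and strand setting, nothing is given in the sources used here. The expression filter was filterByExpr of edgeR 4.0.16 (R 4.3.3) over all 4 groups, with settings of 10 for the minimum count, 15 for the total and 0.7 for the proportion; it kept 99.8% of counts. Libraries were scaled by TMM. One fit of 4 group means to all 12 libraries (8 residual degrees of freedom, common biological coefficient of variation 24.6%) gave the contrast knockout minus intermediate by the two-sided quasi-likelihood test, called at a Benjamini-Hochberg adjusted p under 0.05. SEs and 95% intervals were derived from each log2 fold change and the test's F value. Log2 CPM used a prior count of 2. Replicate pairs differed by at least 8.48 times the sampling noise (chi-square per degree of freedom), so all libraries were kept as separate samples.

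Alternatives used limma 3.58.1, DESeq2 1.42.0 and other scalings, filters and libraries; the test was tried on simulated data with known changes. Named IDs were the 2 largest rises and 2 largest falls among calls that averaged 5 CPM or more over the 6 libraries and had no overlap between the groups, plus UGT71L1. The other published IDs were to be named too and are given as list counts, since no source used here annotates them; lists defined by description terms could not be used. The comparison, lists and rules were chosen with earlier results of these data known. The 20 largest falls, the fold classes and the runs were chosen after values were seen.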

Additional observations from a re-analysis of the deposited data

How the results depend on the processing

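The number of calls was 2478, with 1420 higher and 1058 lower in knockout, and it stayed within 1.5 times of these values under DESeq2-type or upper-quartile scaling, both other filters, robust dispersion, DESeq2, limma-voom, counts summed per locus and a fit of the 6 libraries alone (2017 to 2975 calls). Similar totals did not mean the same calls. Limma-voom kept 1299 of the 1420 higher and 783 of the 1058 lower calls. Over 8-fold it kept 130 of 136 rises and 70 of 141 falls. Most of these rises had few counts outside knockout, where a call is hard to lose, so the kept numbers are not comparable. The fit of the 6 libraries alone kept 1128 higher and 718 lower calls. The filter of 10 counts in 6 libraries kept 58 of the 136 rises over 8-fold. A test against a change of 2-fold gave 503 calls, 332 higher and 171 lower. Limma-voom with sample quality weights gave 3944, 2128 higher and 1816 lower; its library weights ran from 0.235 (empty-vector library 2) to 2.66 (wild-type library 2), and the cause of the larger count was not tested. With 1 library left out there were 1566 to 2642 calls, 975 to 1478 of them higher and 591 to 1164 lower. The 5 named transcripts kept their direction under each alternative that could be fitted for them. In all 5 the groups did not overlap, so a change of direction was unlikely from the start. Potri.010G208100.1 and Potri.010G085200.1 were not called in limma-voom (adjusted p of 0.21 and 0.14; ranges over their alternatives 2.1e-08 to 0.21 and 4.3e-08 to 0.14), and with sample quality weights the first was not called either (adjusted p of 0.086). UGT71L1 (Potri.016G014500.1) was not called against a change of 2-fold (adjusted p of 0.34; range 5.1e-04 to 0.34). Potri.013G082700.1 and Potri.T029200.1 gave no value under the filter of 10 counts in 6 libraries, which removed them. No paired analysis was possible because the sample titles carry 12 different plant numbers and no shared replicate numbers. A floor of 3 counts equals 0.318 to 0.559 CPM in the 6 libraries, so lower levels were not told apart from 0.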
